A study of Mus musculus with 10 samples.

Results

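Kupffer cells are the resident macrophages of the liver and were followed here through 10 genes in whole liver RNA. The genes were chosen by name: Clec4f, Timd4, Vsig4, Cd5l, Marco, Csf1r and Cd163, which mark resident liver macrophages, and C1qa, C1qb and C1qc, which encode the chains of complement C1q. Each of the 10 symbols matched 1 row of the 24016 transcript rows in the table by that rule, which uses no measured value, although the genes were picked for study with earlier results of these data known. The study asked how the liver responds when VEGF-A, the growth factor of blood vessels, is delivered to it. Adult male C57BL/6 mice were given an adenovirus of serotype 5 into the tail vein, and the liver was taken after 6 days. In 5 mice the virus carried VEGF-A165 under the CMV promoter (AdVEGF), and in the other 5 it carried the promoter with no transgene (AdCMV). Both groups therefore carried an adenoviral vector, and no mouse without virus entered the comparison. Livers were rinsed with buffer through the circulation before RNA extraction, and ribosomal RNA was depleted. The values are RPKM, mapped reads scaled to transcript length and to library total, so that levels can be compared between genes.

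Kupffer cells sit inside the liver sinusoids, where they take up particles, dying cells and aged erythrocytes from the portal blood. Their survival depends on signalling through the CSF1 receptor, and their identity depends on contact signals from the endothelial and stellate cells around them, Notch and TGF-beta family ligands among them. C1q starts the classical complement pathway after it binds antibody or cell debris. It is a hexamer of trimers in which each of the chains from C1qa, C1qb and C1qc takes part, and macrophages are its main source.

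The 10 libraries held 5758960 to 13494000 mapped tags in the AdCMV group and 5596560 to 8133950 in the AdVEGF group, as recovered from the steps of the RPKM values. The major urinary protein (Mup) genes took 18.0% to 50.51% of the recovered reads in AdCMV mice and 7.84% to 28.63% in AdVEGF mice. The log2 fold change of the median transcript was 0.38 in the deposited RPKM, so the differences of the 10 genes, and the calls of the other lists, are also given after the libraries were rescaled by the median ratio over transcripts, which brought that median to -0.0044. A transcript was called where limma's moderated test gave a Benjamini-Hochberg adjusted p under 0.05 over the 13933 transcripts tested and the log2 fold change was over 1 or under -1. Counts at an unadjusted p are given without the share of all transcripts at that threshold, so they are descriptions. Fold changes are on the scale of log2(RPKM + 0.1), which understates those of low genes. In liver RNA, a change in the number of Kupffer cells and a change in the RNA per cell cannot be told apart.

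All 10 genes had a higher mean in AdVEGF mice, with log2 fold changes from 0.44 (Cd163) to 2.15 (Clec4f). Clec4f and Vsig4 rose more than 4-fold and Csf1r rose about 2-fold, while the C1q chains, Cd5l, Marco, Timd4 and Cd163 were not called. The 3 calls among 10 genes stand beside 13.0% of all tested transcripts called higher. No member was called lower by limma, 0 at an unadjusted p under 0.05 and 0 by voom on the recovered reads, beside 1.54% of all transcripts. After median-ratio scaling 2 of the 10 were called higher, Clec4f and Vsig4, beside 7.77% of all transcripts. None was called lower after scaling, beside 3.14%. The median log2 fold change of the 10 genes was 0.78, which lay 0.39 above the median transcript, and it was 0.40 after scaling.

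The promoters of Clec4f, Vsig4, C1qb and C1qc are shown because they set the pair of markers that rose most beside a pair of C1q chains whose genes lie side by side. Each run holds the 250 bases before the transcription start, 5′ to 3′ on the gene's strand, from RefSeq on GRCm38.p6. Clec4f spans chr6:83656117-83656366, Vsig4 chrX:96293439-96293688, C1qb chr4:136886201-136886450 and C1qc chr4:136892915-136893164, all on the minus strand. Capitals mark GAGGAA or its reverse complement TTCCTC, the core bound by PU.1, the transcription factor that macrophages depend on.
Clec4f: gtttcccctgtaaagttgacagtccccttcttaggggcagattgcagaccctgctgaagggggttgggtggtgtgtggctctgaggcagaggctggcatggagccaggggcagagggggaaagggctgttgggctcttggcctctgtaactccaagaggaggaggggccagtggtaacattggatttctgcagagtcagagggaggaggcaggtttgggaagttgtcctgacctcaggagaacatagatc
Vsig4: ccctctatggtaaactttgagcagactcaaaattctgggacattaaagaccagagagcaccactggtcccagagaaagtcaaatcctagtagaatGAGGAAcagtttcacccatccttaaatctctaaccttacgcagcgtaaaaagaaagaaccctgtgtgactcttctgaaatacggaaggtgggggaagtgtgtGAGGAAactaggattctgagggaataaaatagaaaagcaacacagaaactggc
C1qb: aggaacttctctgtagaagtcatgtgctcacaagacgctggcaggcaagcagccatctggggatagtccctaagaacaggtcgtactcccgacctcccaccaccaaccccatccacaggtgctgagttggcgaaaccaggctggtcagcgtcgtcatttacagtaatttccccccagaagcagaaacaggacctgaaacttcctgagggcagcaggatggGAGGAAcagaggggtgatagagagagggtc
C1qc: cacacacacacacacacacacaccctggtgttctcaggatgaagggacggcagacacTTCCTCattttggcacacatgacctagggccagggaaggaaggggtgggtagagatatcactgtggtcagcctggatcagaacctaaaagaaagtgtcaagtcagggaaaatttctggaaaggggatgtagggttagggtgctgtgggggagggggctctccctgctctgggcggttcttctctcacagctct

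Promoters of 8 of the 10 genes were matched in the RefSeq table, C1qa and Csf1r apart. The PU.1 core was found on either strand in 5 of the 8, Vsig4, Cd5l, Marco, C1qb and C1qc, beside 23.3% of 32851 promoters of the same length. The Vsig4 window held it at positions -155 and -53 from the start, and the Clec4f window did not hold it. GTGGGAA, the core bound by the Notch factor RBPJ, was found in 0 of the 8, beside 5.42% of all promoters. AGGTCA, the core bound by nuclear receptors, was found in Clec4f, Timd4 and C1qc, beside 14.0% of all. These matches describe letters in a short window and were not tested against the expression data.

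Clec4f encodes a C-type lectin that in mice is confined to Kupffer cells. Its transcript (NM_016751, mm9 chr6:83594536-83606110, minus strand) was at 1.44, 3.32, 2.71, 2.84 and 5.30 RPKM in AdCMV mice 1 to 5. In AdVEGF mice 1 to 5 it was at 18.1, 18.2, 17.9, 5.66 and 11.7 RPKM. All 5 AdVEGF values lay above all 5 AdCMV values, but AdVEGF mouse 4 was close to AdCMV mouse 5. The mean rose from 3.12 ± 1.40 to 14.3 ± 5.56 RPKM (SD, n = 5 each), a ratio of 4.58. The log2 fold change was 2.15 (SE 0.34, limma adjusted p = 0.000205) with a 95% interval of 1.43 to 2.88. After median-ratio scaling it was 1.76 (limma adjusted p = 0.00348), and 4 of 5 AdVEGF mice lay above every AdCMV mouse. The values rest on 25 to 107 recovered reads in AdCMV mice and 110 to 323 in AdVEGF mice.

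Vsig4 encodes the complement receptor CRIg, which binds C3 fragments and lets Kupffer cells take up opsonised particles. Its transcript (NM_177789, mm9 chrX:93442542-93488777, minus strand) was at 1.07, 2.19, 1.07, 0.745 and 2.07 RPKM in AdCMV mice 1 to 5. In AdVEGF mice it was at 9.51, 8.61, 6.28, 4.41 and 3.86 RPKM. The groups did not overlap, and the lowest AdVEGF mouse still lay above the highest AdCMV mouse after median-ratio scaling. The mean rose from 1.43 ± 0.655 to 6.53 ± 2.49 RPKM (SD, n = 5 each), a ratio of 4.57. The log2 fold change was 2.14 (SE 0.32, limma adjusted p = 0.000109, 95% interval 1.46 to 2.82) and 1.75 after scaling (limma adjusted p = 0.00132). Vsig4 was the one gene of the 10 whose groups did not overlap after scaling, beside 10.6% of all transcripts with every AdVEGF value on top.

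Csf1r encodes the receptor for CSF1 and IL-34 and is carried by all cells of the monocyte and macrophage lineage. Its transcript (NM_001037859, mm9 chr18:61265226-61290793, plus strand) was at 6.38, 7.91, 10.3, 5.95 and 15.3 RPKM in AdCMV mice. The AdVEGF mice had 26.4, 24.1, 17.7, 14.0 and 18.4 RPKM. The groups overlapped by 1 mouse on each side, since AdVEGF mouse 4 lay below AdCMV mouse 5. The mean rose from 9.18 ± 3.83 to 20.1 ± 5.06 RPKM (SD, n = 5 each), with a log2 fold change of 1.18 (SE 0.26, limma adjusted p = 0.00348, 95% interval 0.62 to 1.73). After scaling the adjusted p was 0.0196 and the log2 fold change was 0.78, under the fold threshold, so the call was lost.

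Cd5l, Marco, Timd4 and Cd163 were not called. Cd5l encodes AIM, a secreted scavenger receptor protein that macrophages release into plasma, and it was the highest of the 10 genes per length. Its transcript (NM_009690, mm9 chr3:87161803-87174996, plus strand) was at 48.7, 61.0, 72.9, 41.0 and 97.4 RPKM in AdCMV mice. The AdVEGF values were 126, 117, 122, 83.1 and 88.7 RPKM. AdVEGF mice 4 and 5 lay below AdCMV mouse 5, and the other 3 lay above all controls. The log2 fold change was 0.78 (SE 0.24, limma adjusted p = 0.0236), and after scaling it was 0.38 (limma adjusted p = 0.128).

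Marco encodes a scavenger receptor for bacteria and particles. Its transcript (NM_010766, mm9 chr1:122371115-122401661, minus strand) was at 5.06, 5.35, 2.97, 2.32 and 4.15 RPKM in AdCMV mice. In AdVEGF mice it was at 3.89, 7.19, 5.73, 14.3 and 3.93 RPKM. AdVEGF mouse 4 stood above all others, and AdVEGF mice 1 and 5 lay within the AdCMV range. The log2 fold change was 0.69 (SE 0.33, limma adjusted p = 0.132), and it was 0.40 without AdVEGF mouse 4 (limma adjusted p = 0.332) and 0.30 after scaling (limma adjusted p = 0.584).

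Timd4 encodes TIM-4, a phosphatidylserine receptor that marks resident macrophages of embryonic origin. Its transcript (NM_178759, mm9 chr11:46624301-46657835, plus strand) was at 0.255, 0.479, 0.176, 0.490 and 0.401 RPKM in AdCMV mice. The AdVEGF mice had 0.905, 0.995, 0.743, 0.227 and 0.687 RPKM. In 4 AdVEGF mice it lay above all controls, while AdVEGF mouse 4 lay below 4 of the 5. These values rest on 3 to 16 reads a library, and Timd4 passed the filter on low values (a group mean above 0.5 RPKM) only through the AdVEGF group. The other 9 genes passed it in both groups. The log2 fold change of Timd4 was 0.77 (SE 0.41, limma adjusted p = 0.175) with a 95% interval of -0.10 to 1.63, which holds both no difference and the value found for Csf1r. After scaling it was 0.42 (limma adjusted p = 0.510).

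Cd163 encodes the receptor that clears haemoglobin bound to haptoglobin. Its transcript (NM_053094, mm9 chr6:124254669-124280545, plus strand) was at 0.252, 0.456, 0.752, 0.531 and 0.791 RPKM in AdCMV mice. The AdVEGF values were 0.892, 0.920, 0.448, 0.980 and 0.609 RPKM. The ranges overlapped, with 3 of 5 AdVEGF mice above all controls. It rested on 8 to 35 reads a library, and its log2 fold change was 0.44 (SE 0.36, limma adjusted p = 0.375, 95% interval -0.32 to 1.19). It was 0.23 without AdCMV mouse 1 (limma adjusted p = 0.690) and 0.10 after scaling (limma adjusted p = 0.851).

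**Figure D1:**
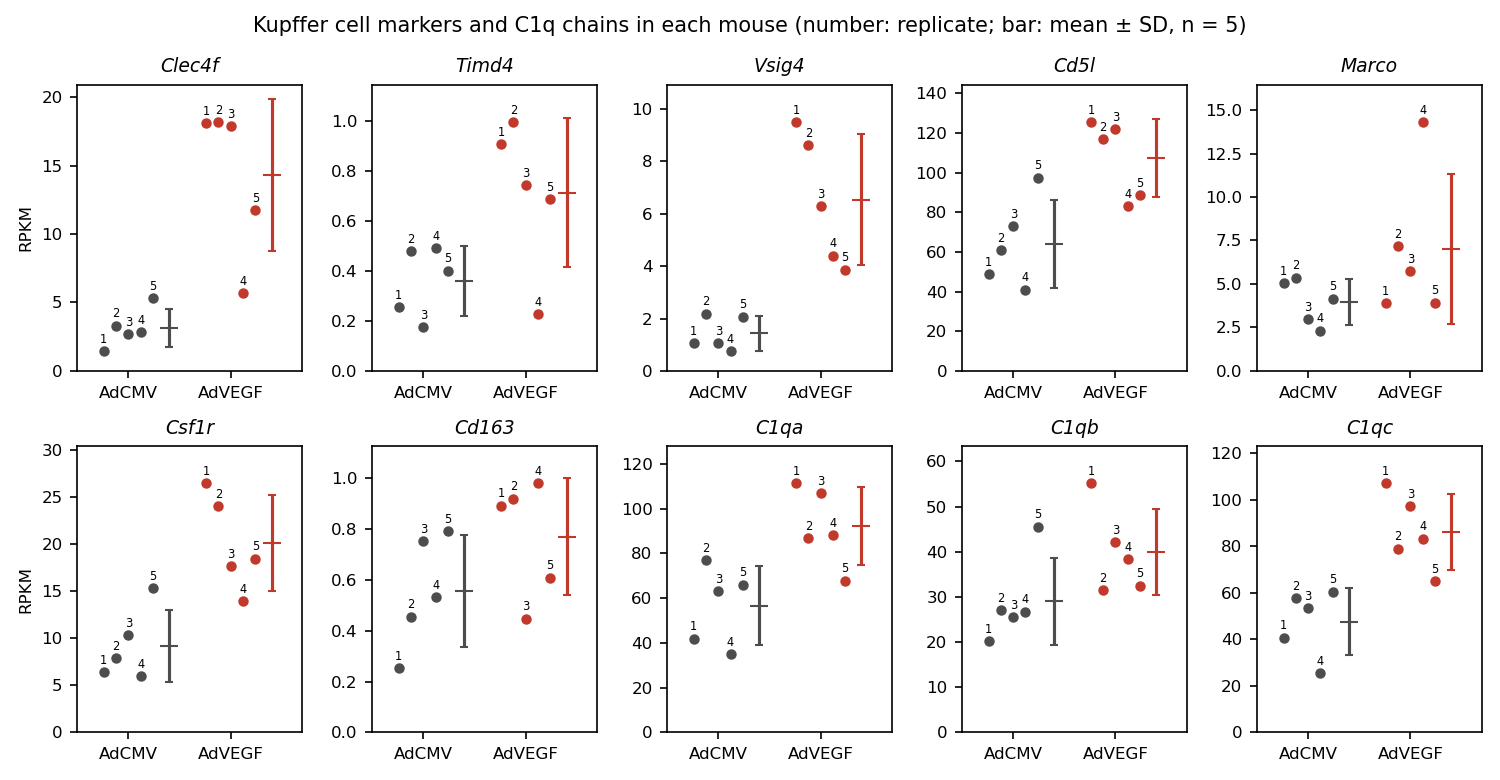
RPKM of each gene in each mouse, grey for AdCMV and red for AdVEGF, with the replicate number at each point and the mean ± SD of 5 mice as a bar; each panel has its own linear axis from 0. Clec4f, Vsig4 and C1qc show groups that do not overlap, 3 of 10, beside 14.3% of all transcripts. AdVEGF mouse 4 is low for Clec4f and Timd4 (5.66 and 0.227 RPKM) but highest for Marco and Cd163 (14.3 and 0.980 RPKM).

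The genes of the C1q chains are neighbours on mm9 chromosome 4, all on the minus strand. C1qb lies at chr4:136436061-136442092 (NM_009777), C1qc at chr4:136445717-136448829 (NM_007574) and C1qa at chr4:136451831-136454759 (NM_007572). None of the chains was called by limma or by voom on the recovered reads, although each had a higher mean in AdVEGF mice and 2 of the 3 had an unadjusted p under 0.05 (3 by voom). C1qa encodes the A chain and was at 41.8, 77.0, 63.2, 35.1 and 65.9 RPKM in AdCMV mice. In AdVEGF mice it was at 111, 86.6, 107, 88.2 and 67.7 RPKM. Only AdVEGF mouse 5 lay below the highest control. The mean was 56.6 ± 17.5 against 92.1 ± 17.5 RPKM (SD, n = 5 each), with a log2 fold change of 0.74 (SE 0.23, limma adjusted p = 0.0300).

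C1qb encodes the B chain and was at 20.3, 27.0, 25.5, 26.7 and 45.5 RPKM in AdCMV mice. The AdVEGF mice had 55.1, 31.5, 42.1, 38.4 and 32.5 RPKM. AdCMV mouse 5 stood apart from its group and lay above 4 of the 5 AdVEGF mice. The mean was 29.0 ± 9.64 against 39.9 ± 9.54 RPKM, with a log2 fold change of 0.48 (SE 0.23, limma adjusted p = 0.130).

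C1qc encodes the C chain and was at 40.7, 57.6, 53.4, 25.6 and 60.6 RPKM in AdCMV mice. The AdVEGF values were 107, 79.1, 97.3, 83.3 and 65.0 RPKM. Its groups did not overlap on the deposited scale. The mean was 47.6 ± 14.5 against 86.4 ± 16.3 RPKM, with a log2 fold change of 0.90 (SE 0.24, limma adjusted p = 0.0121). The adjusted p passed but the fold did not, and C1qc was called when AdCMV mouse 5 (log2 fold change 1.01) or AdVEGF mouse 5 (1.00) was left out. After median-ratio scaling the log2 fold changes were 0.34 for C1qa, 0.08 for C1qb and 0.50 for C1qc, with limma adjusted p of 0.205, 0.827 and 0.0587.

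Counted at any fold, 6 of the 10 genes were higher with an adjusted p under 0.05, Clec4f, Vsig4, Csf1r, C1qc, Cd5l and C1qa, beside 21.9% of all transcripts. After scaling there were 3, Clec4f, Vsig4 and Csf1r, beside 12.7%. Groups did not overlap for Clec4f, Vsig4 and C1qc, 3 of 10, beside 14.3% of all transcripts. No gene of the 10 had a lower AdVEGF mean under the deposited or the median-ratio scale.

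**Figure D2:**
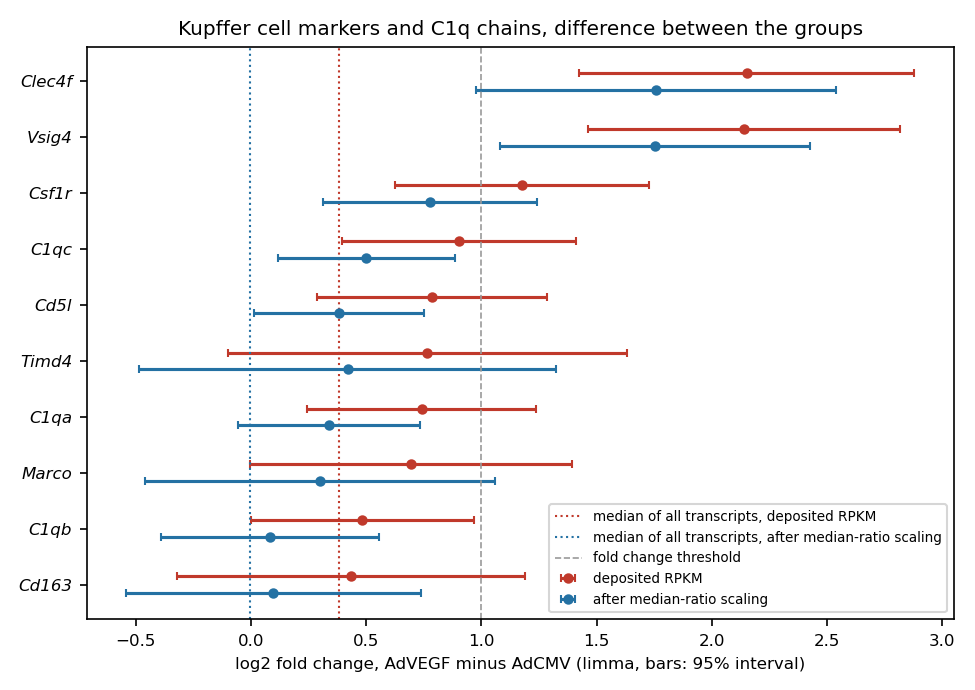
Log2 fold change of each gene, AdVEGF minus AdCMV, with its 95% interval from limma, in red for deposited RPKM and in blue after median-ratio scaling; dotted lines mark the median of all tested transcripts (0.38 and -0.0044) and the dashed line the fold threshold of 1. Clec4f (2.15) and Vsig4 (2.14) have the largest values, and Csf1r crosses below the threshold after scaling (1.18 to 0.78).

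Per length, the levels had the same order in both groups but for Marco and Clec4f. In AdCMV mice the order of mean RPKM was Cd5l (64.2), C1qa (56.6), C1qc (47.6), C1qb (29.0), Csf1r (9.18), Marco (3.97), Clec4f (3.12), Vsig4 (1.43), Cd163 (0.556) and Timd4 (0.360). Neighbours in this order overlapped in range except C1qb with Csf1r and Csf1r with Marco. In AdVEGF mice the order was Cd5l (107), C1qa (92.1), C1qc (86.4), C1qb (39.9), Csf1r (20.1), Clec4f (14.3), Marco (7.01), Vsig4 (6.53), Cd163 (0.770) and Timd4 (0.711). Here C1qc and C1qb, C1qb and Csf1r, and Vsig4 and Cd163 did not overlap, while the other neighbours did. Clec4f thus moved from below Marco to above it in the mean, with overlapping ranges in each group.

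Ratios within a library do not depend on its total, so the genes were also set against C1qc. These ratios are descriptions with no test. The log2 ratio of Vsig4 to C1qc was -5.13, -4.66, -5.51, -4.93 and -4.80 in AdCMV mice and -3.48, -3.18, -3.93, -4.21 and -4.04 in AdVEGF mice. Every AdVEGF mouse lay above every AdCMV mouse, and the means differed by 1.24. The log2 ratio of Clec4f to C1qc averaged -3.93 ± 0.63 in AdCMV and -2.69 ± 0.68 in AdVEGF mice (SD, n = 5 each). It was above all controls in 4 of 5 AdVEGF mice, AdVEGF mouse 4 at -3.86 lying within the control range.

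The means of the remaining ratios differed by at most 0.47 between the groups. Csf1r to C1qc averaged -2.39 and -2.11 in AdCMV and AdVEGF mice, Cd5l to C1qc 0.43 and 0.31, Marco to C1qc -3.55 and -3.76, and Timd4 to C1qc -6.69 and -6.83. Cd163 to C1qc averaged -6.19 and -6.66, the widest difference among them, with overlapping groups. C1qa to C1qc averaged 0.26 ± 0.18 in AdCMV and 0.09 ± 0.04 in AdVEGF mice. C1qb to C1qc averaged -0.70 ± 0.51 and -1.12 ± 0.15, the wide spread in AdCMV mice coming with mice 4 and 5, which were highest.

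**Figure D3:**
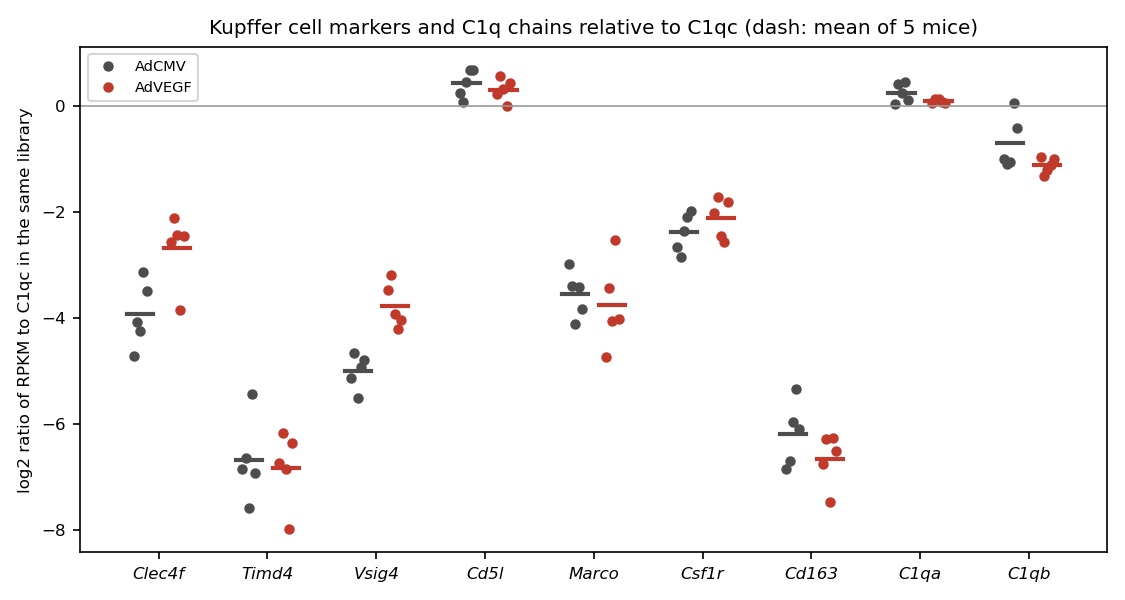
Log2 ratio of the RPKM of each gene to that of C1qc in the same library, 1 point a mouse, grey for AdCMV and red for AdVEGF, with a dash at the mean of 5 mice. Vsig4 is above the control range in every AdVEGF mouse (mean -5.01 in AdCMV and -3.77 in AdVEGF) and Clec4f in 4 of 5, while Timd4, Cd5l, Marco, Cd163 and the C1q chains have overlapping groups.

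The mice differed in a pattern shared by several genes. Among controls, AdCMV mouse 5 had the highest value for 6 of the 10 genes and AdCMV mouse 4 the lowest for 6. Among AdVEGF mice, mouse 1 was highest for 6, and mouse 4 was lowest for Clec4f, Timd4, Cd5l and Csf1r but highest for Marco and Cd163. In AdVEGF mouse 4, which was singled out after its values were seen, Cd14, Trem2, Chil3, S100a8 and S100a9 were also at their highest of the 10 mice, at 8.31, 8.10, 6.61, 107 and 79.3 RPKM. Of the 114 tested genes of the lists described below, 24 (21.1%) were highest in that mouse, beside 22.4% of all tested transcripts. Without it the log2 fold changes of Clec4f, Vsig4 and Csf1r were 2.45, 2.26 and 1.30, all still called.

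By their variation among mice within groups, the genes most like the C1q chains were Lcp2, an adaptor of immune receptor signalling (r = 0.96 to the mean of the C1q chains), Papss1 (0.95), Mir6244 (0.95), Efemp1 (0.92), Sgk1 (0.92), Txndc15 (0.91), Hacl1 (0.90) and Spsb2 (0.90). The genes most like the mean of the 7 markers were Stx3 (0.91), Folr2 (0.91), a folate receptor of macrophages, Zfp143 (0.87), Bank1 (0.85), Igfbp3 (0.85), Tbxas1 (0.84), Dpt (0.84) and Colec10 (0.83). These are Pearson correlations over 10 mice after each group's mean was removed, the highest among 10639 transcripts, and the mice share the scaling of their library across genes.

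Other macrophage genes were mostly not called. The counts of this and the later lists stand beside 13.0% of all tested transcripts called higher and 1.54% lower. After scaling those shares were 7.77% and 3.14%. Of 12 tested, Folr2 was called higher, from 2.82 to 8.21 RPKM (log2 fold change 1.58, limma adjusted p = 0.00515, and 1.19 after scaling), and none was called lower. After scaling 1 of 12 was higher and 2 were lower at an unadjusted p under 0.05. Hpgd was then at -0.84 (limma adjusted p = 0.00142), short of the fold threshold. The median log2 fold change of the list was 0.43, near the median transcript, and 0.03 after scaling. Adgre1, the gene of F4/80, differed by 0.62 on the log2 scale (limma adjusted p = 0.0924) and by 0.22 after scaling. Lyz2, the lysozyme of myeloid cells, had -0.17 (limma adjusted p = 0.704) and -0.57 after scaling, and its log2 ratio to C1qc averaged -0.70 in AdCMV and -1.77 in AdVEGF mice. Of the controls, only AdCMV mouse 2 lay within the AdVEGF range of that ratio. The row of Cd68 is a noncoding transcript and differed by 0.72 on the log2 scale (limma adjusted p = 0.334).

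Among transcription factors of macrophages, 4 of 10 were called higher and none lower. After scaling 2 were called higher, and Irf8 was at -0.48 (limma adjusted p = 0.0452), short of the fold threshold. Id1 and Id3, inhibitors of helix-loop-helix factors and targets of BMP signalling, rose by 2.85 and 1.49 on the log2 scale (limma adjusted p = 1.69e-07 and 4.05e-05), and by 2.45 and 1.09 after scaling, both still called. Zeb2 rose by 1.23 and Maf by 1.07 (limma adjusted p = 0.00104 and 0.00118), and both were under the fold threshold after scaling (0.84 and 0.67). Id1, Id3, Zeb2 and Maf are also expressed outside macrophages. Nr1h3, the gene of LXR-alpha, differed by 0.21 (limma adjusted p = 0.420), and Spic, the factor of iron-recycling macrophages, by -0.05 (limma adjusted p = 0.895). After scaling Nr1h3 differed by -0.19 and Spic by -0.44 (limma adjusted p = 0.31 and 0.060). The 7 genes of iron recycling had no call by limma or voom, 0 at an unadjusted p under 0.05 (1 by voom), and a median log2 fold change of 0.07. After scaling their median was -0.33 and 4 of 7 were lower at an unadjusted p under 0.05, with no call (Blvrb at -0.72, limma adjusted p = 0.0183). The count at an unadjusted p has no share of all transcripts beside it and is a description.

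Of the ligands that Kupffer cells receive from their niche, 6 of 8 were called higher, beside 13.0% of all transcripts, and none lower. Their median log2 fold change was 1.65. After scaling 5 were called, beside 7.77% of all transcripts, and the median was 1.28. Dll4, a Notch ligand, rose from 0.837 to 14.7 RPKM (log2 fold change 4.14, limma adjusted p = 1.27e-07). Tgfb1 rose by 1.92 on the log2 scale (limma adjusted p = 0.00302) and Bmp10 by 1.75 (limma adjusted p = 0.0220), the last losing its call after scaling (1.50, limma adjusted p = 0.0575). Bmp10 had 0 to 3 reads a library in AdCMV mice and passed the filter only through the AdVEGF group, so its call is no support for the count. The ligands of CSF1R differed from each other. Il34 rose from 0.738 to 2.50 RPKM (log2 fold change 1.66, limma adjusted p = 0.000190), while Csf1 was at 3.52 and 4.76 RPKM (0.49, limma adjusted p = 0.176).

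Receptors for scavenging and engulfment were called higher in 5 of 12 and lower in none. After scaling 3 were called, Fcgr2b (0.89) and Fcgr3 (0.73) being under the fold threshold. Stab1, a scavenger receptor of sinusoidal endothelium and some macrophages, rose by 1.75 on the log2 scale, Mrc1, the mannose receptor, by 1.46 and Cd36 by 1.46 (limma adjusted p = 1.57e-05, 0.000285 and 0.00409). The complement list held the proteases of C1q, C2, C3, C4, their inhibitors and the lectin pathway proteases Masp1 and Masp2, and had 1 call. Of 11 measured, Masp1, which does not belong to the classical pathway of C1q, was called higher (1.32, limma adjusted p = 0.00992). No other gene of the list was called on the deposited scale, and the median log2 fold change was -0.19. After scaling Masp1 lost its call (0.93, limma adjusted p = 0.0642), the median was -0.59, and 9 of 11 were lower at an unadjusted p under 0.05. That count has no share of all transcripts beside it and is a description. C2 had a log2 fold change of -0.61 on the deposited scale and was called lower after scaling, at -1.01.

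Markers of other cells also moved with the groups, and their part in the results above was not tested. None of the listed markers was at 0 in all 10 mice. The endothelial list rose in 8 of 8 genes, with a summed level of 26.9 to 57.0 RPKM in AdCMV and 237 to 303 RPKM in AdVEGF mice. Emcn, Tie1 and Kdr led it with log2 fold changes of 5.33, 3.02 and 2.78 (limma adjusted p = 2.41e-09, 4.03e-07 and 2.63e-06), and all 8 were called after scaling. For comparison, the 7 Kupffer cell markers summed to 53.9 to 125 and 123 to 185 RPKM, and the C1q chains to 87.4 to 172 and 165 to 274 RPKM. Cd5l, which was not called, made up most of the marker sums, with means of 64.2 and 107 RPKM. The sums are on the deposited scale. The hepatocyte list had 2 of 8 called higher, Apoa1 (1.17) and Alb (1.14), and none after scaling, when 1 was called lower, with sums of 16060 to 20800 and 28650 to 36050 RPKM.

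Genes of recruited monocytes and lipid-associated macrophages had 2 of 12 called higher and 1 lower, with sums of 93.5 to 190 and 321 to 796 RPKM. Spp1, osteopontin, rose from 35.2 to 531 RPKM (log2 fold change 3.91, limma adjusted p = 1.00e-07) and is also made by bile duct cells. Without Spp1 the other 11 genes summed to 75.7 to 145 RPKM in AdCMV and 52.9 to 110 RPKM in AdVEGF mice. Trem2 rose by 1.34 (limma adjusted p = 0.0234) with its highest value in AdVEGF mouse 4, and it lost its call after scaling (0.96, limma adjusted p = 0.12). Ly6c2, a marker of inflammatory monocytes, fell by 1.36 on the log2 scale (limma adjusted p = 0.000388). Ccr2, Itgam and Cx3cr1 of the same list were not called. They differed by -0.06, 0.36 and 0.87 on the log2 scale (limma adjusted p = 0.867, 0.475 and 0.0138). After scaling 1 was called higher, Spp1, and 3 lower, Ly6c2, Ccl2 and Ccl7.

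Alternative activation genes had 2 of 4 tested called higher, Ccl24 (2.05, limma adjusted p = 4.65e-05) and Clec10a (1.26, limma adjusted p = 0.0113), and Retnla and Il10 were under the filter. Clec10a lost its call after scaling (0.93). Their sums were 6.33 to 14.2 and 20.1 to 38.4 RPKM. Dendritic cell markers had 3 of 5 tested called higher, Zbtb46 (2.14), Cd209a (1.66) and Clec9a (1.12, lost after scaling at 0.75), with sums of 13.7 to 23.6 and 22.5 to 35.5 RPKM. B cell markers had 2 of 3 tested called higher, Cd79b (2.36) and Ms4a1 (1.74, lost after scaling at 1.45), with sums of 0.441 to 1.59 and 2.51 to 7.46 RPKM. T and NK cell markers had 6 of 7 tested called lower, Prf1 (-2.10), Gzmb (-1.98) and Cd3g (-1.48) first, and all 7 after scaling. Their sums were 8.71 to 32.1 and 4.99 to 12.7 RPKM. Cd4, Klrb1c and Ncr1 were under the filter. The NK cell genes Ncr1 and Klrb1c had higher means in AdVEGF mice, at 0.113 and 0.377 RPKM and at 0.196 and 0.320 RPKM. They rest on 0 to 14 reads a library. The higher Klrb1c mean came with AdVEGF mouse 1, at 0.95 RPKM. The other AdVEGF mice were at 0.057 to 0.234 RPKM and the AdCMV mice at 0 to 0.435 RPKM. Cd4 had a lower mean, at 0.402 and 0.264 RPKM. Clec10a, Zbtb46, Cd209a and Ms4a1 passed the filter only through the AdVEGF group, where they were higher, so their calls are no support for these counts.

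Neutrophil markers had 4 of 7 called higher, with sums of 15.3 to 99.2 and 16.7 to 199 RPKM. Mpo, the myeloperoxidase of granulocyte precursors, was at 0 in all 5 AdCMV mice and at 0.529 to 4.47 RPKM in AdVEGF mice, at least 16.1-fold higher against a floor of 3 reads a library. Elane, Camp and Ngp had 0 or 1 read in each control library, under that floor, and 1 to 7, 0 to 7 and 1 to 10 reads in AdVEGF libraries. All 4 called genes passed the filter only through the AdVEGF group, so the count is a description, and 3 were called after scaling. S100a8 and S100a9, carried by mature neutrophils, had log2 fold changes of 0.24 and 0.15 (limma adjusted p = 0.780 and 0.873).

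**Figure D4:**
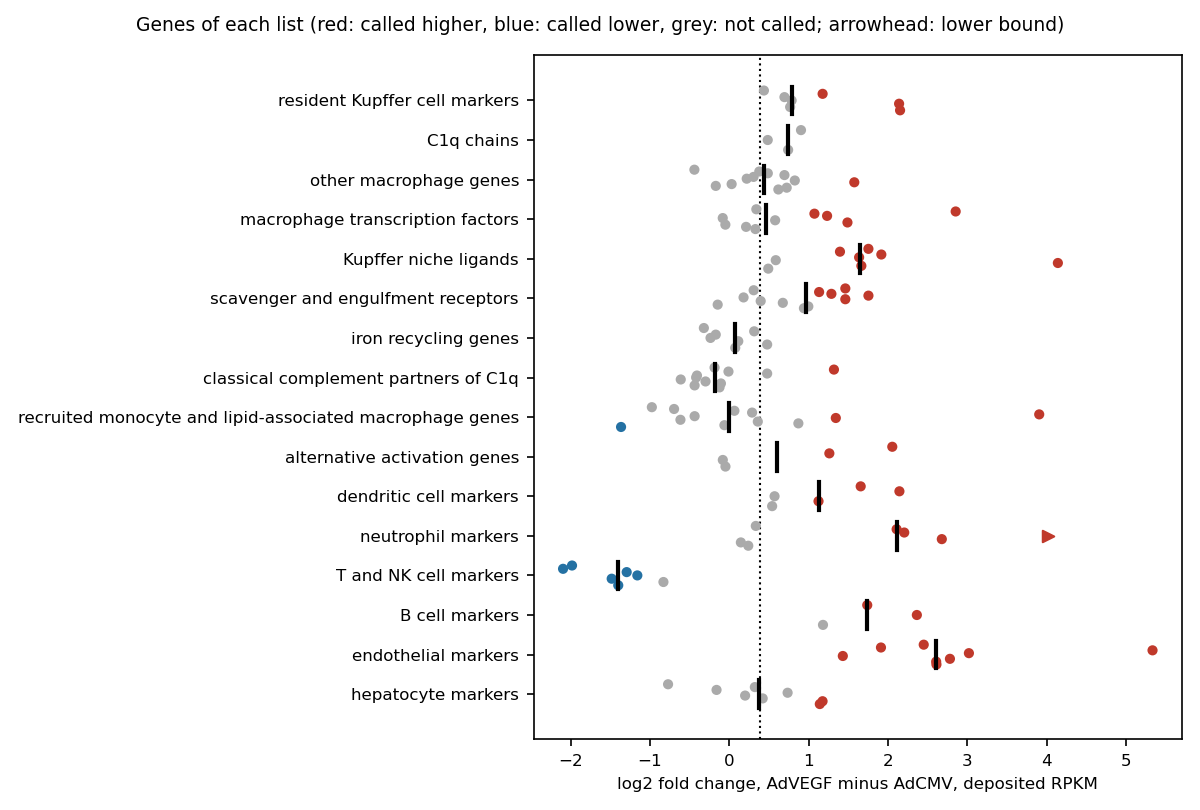
Log2 fold change, AdVEGF minus AdCMV, of every tested gene of each list on the deposited RPKM; red points were called higher, blue lower and grey neither, black bars are list medians, the dotted line is the median of all transcripts (0.38), and the arrowhead is the lower bound for Mpo; Elane, Camp and Ngp, also neutrophil markers, rest on 0 or 1 read in each control library. The Kupffer cell markers (median 0.78) and C1q chains (0.74) lie between the endothelial markers (2.61) and the T and NK cell markers (-1.40).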

How the data were processed

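Liver RNA of 10 mice, 5 AdCMV and 5 AdVEGF, was sequenced after ribosomal depletion, and groups follow the sample labels, which call the samples biological replicates. The deposited values are RPKM per RefSeq transcript, with 1 row for each gene, which the authors made after mapping with TopHat. The submitters' processing notes name TopHat, HOMER and mm9, and the counting settings are not given in the sources used here. The authors' own fold change and FDR columns were not used. Limma 3.58.1 (R 4.3.3; lmFit, eBayes with trend) was fitted to log2(RPKM + 0.1) over the 13933 transcripts whose mean exceeded 0.5 RPKM in either group, with no covariate, and calls used the study's thresholds (Benjamini-Hochberg adjusted p under 0.05, log2 fold change over 1 or under -1). The fit was tested on simulated data. These held no shift of the median transcript, and their spread between mice was set beforehand, so they say nothing of the effect of either here. Reads were recovered from the RPKM steps, and at least 99.993% of values were whole within 0.1 read; they served for depth and for an alternative with voom, and say nothing of duplicates. The 5 rows with no symbol stayed out of gene counts. No replicates were near copies, since the within-group variance was at least 12.5 times that of read sampling. The other lists were macrophage, niche, receptor, complement and cell type genes. One result of these lists is not reported here. Named from each were the 3 called genes with the largest change, plus Csf1, Il34, Nr1h3, Spic, Id3 and Cd68. Adgre1, Lyz2, Maf, C2, Ngp, Cd14, Chil3, S100a8, S100a9, Fcgr2b, Fcgr3 and Blvrb were added after their values were seen. So were Cd4, Klrb1c, Ncr1, Ccr2, Itgam, Cx3cr1, Hpgd and Irf8. The members and lists were chosen with earlier results of these data known. Alternatives covered scaling, pseudocount, filter, voom, duplicated symbols, the replicate number as a block, and each mouse left out. Keeping 1 row per symbol removed no tested transcript, so that alternative, among the 22 below, could not differ from the main fit. Promoters came from RefSeq (GRCm38.p6), another build than the files' mm9, and no coordinates were converted.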

Additional observations from a re-analysis of the deposited data

Results flagged for a closer look

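The 10 genes and most list genes named with values were checked for a single distant value by Dixon's criterion. Cd4, Klrb1c, Ncr1, Ccr2, Itgam, Cx3cr1, Hpgd and Irf8 were not checked and are not in the count below. Of 118 groups of 5 mice, 15 had one. Chance gives about 1 in 20, but the count cannot be set against that rate. Genes added after their values were seen are in it, and C2, Cd14, Chil3, S100a8 and S100a9 of these gave distant values. Among the C1q chains, C1qb was at 45.5 RPKM in AdCMV mouse 5, while its group otherwise reached 27.0 RPKM. In the other lists, AdCMV mouse 3 was distant for Cd36 (96.5 RPKM), Elane (0.139 RPKM, the other 4 at 0) and Apoa1 (1502 RPKM), AdCMV mouse 5 for Cd209a (0.471 RPKM) and AdCMV mouse 2 for S100a8 (51.9 RPKM). AdVEGF mouse 5 was low for Ccl24 (16.9 RPKM) and Elane (0.163 RPKM), and AdVEGF mouse 3 was high for Gzmb (1.90 RPKM). AdVEGF mouse 4 was low for Kdr (16.0 RPKM) and high for C2 (34.1 RPKM), Cd14 (8.31 RPKM), Chil3 (6.61 RPKM), S100a8 (107 RPKM) and S100a9 (79.3 RPKM).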

How the results depend on the processing

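Under the 22 alternatives, 2 to 4 of the 10 genes were called higher and 0 lower, and Clec4f (log2 fold change 1.75 to 2.45) and Vsig4 (1.61 to 2.31) kept their calls in all. The median log2 fold change of the 10 genes, 0.78, became 0.402 with median-ratio scaling, 0.395 with library totals without the Mup genes, 0.443 with upper quartile scaling, 0.416 with voom on recovered reads after median-ratio scaling, and 0.402 with median-ratio scaling plus the replicate block, a fit chosen after seeing the data. Csf1r lost its call under those 5 (0.77 to 0.82), since its fold fell under the threshold, and C1qc gained one without AdCMV mouse 5 or AdVEGF mouse 5. With each mouse left out in turn the median ran from 0.668 to 0.891 and the calls from 3 to 4. Over all transcripts, 1808 were called higher and 214 lower, against 1082 and 438 with median-ratio scaling and 954 and 147 with a pseudocount of 1. Median-ratio scaling left 71.2% of calls higher, against 89.4% on the deposited scale. The replicate block left the median at 0.776 and the calls at 3. Replicate numbers shared no stated litter or day, 2 of 5 same-number pairs had a correlation over 0.1, and 4 of 10 libraries were closest to their own number. A minimum mean of 1 RPKM left out Cd163 and Timd4, whose 3 to 35 reads a library limit what can be detected.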
